A study of Mus musculus with 7 samples.

Results

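Neurotransmitter receptors are the membrane proteins through which a cell detects transmitter released by other cells. Ionotropic receptors are ion channels assembled from several subunits, each with its own gene: AMPA, kainate and NMDA receptors for glutamate, GABA-A receptors for GABA, glycine receptors, nicotinic receptors for acetylcholine and one class of serotonin receptor. Metabotropic receptors act through G proteins and comprise the metabotropic glutamate, GABA-B, muscarinic and most serotonin receptors. In the developing neocortex, progenitors and newborn neurons carry such receptors before synapses are abundant, and GABA depolarizes immature neurons because their internal chloride is high.

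The receptor genes were taken by symbol from the 21173 protein-coding genes among the 38124 genes of a count table, using the name stems of the glutamate, GABA, glycine, acetylcholine and serotonin receptor families. This gave 88 genes: 26 for glutamate, 21 for GABA, 21 for acetylcholine, 14 for serotonin, 5 for glycine, and 1 whose name fits a stem but which encodes no receptor.

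The study asked what conditional Sox9 expression changes in the transcriptome of mouse basal progenitors, the neocortical progenitors that divide away from the ventricle. RNA-Seq was performed on 7 libraries from E15.5 dorsolateral neocortex: 3 electroporated with the control construct, which gives nuclear RFP only (replicates 1, 2 and 4), and 4 with the conditional Sox9 expression construct, which gives RFP and Sox9 (replicates 1 to 4). All embryos were heterozygous for Tis21-CreERT2, in which a CreERT2 cassette replaces the first exon of 1 *Tis21* allele, so that tamoxifen-activated Cre acts in progenitors that express *Tis21* and in their progeny. Mothers of both groups were given tamoxifen on E12.5 and again on E13.5, the day of electroporation, and 5000 cells with the strongest RFP fluorescence (High RFP cells) were sorted per library 48 hr later. The methods describe pools of cortices from several embryos and mothers, whereas the legends give each library as 1 neocortex.

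Libraries held 4429704 to 12907778 counts on genes, with the 3 controls at 10465562 or more and 3 of the 4 libraries labelled Sox9 below that. The counts do not follow the label for *Sox9* itself: controls had 63.9 ± 27.5 CPM (counts over scaled library size; SD, n = 3) and libraries labelled Sox9 had 40.0 ± 8.33 CPM (SD, n = 4) (log2 fold change -0.68, SE 0.25, adjusted p = 0.0493 by edgeR's quasi-likelihood test). The endogenous gene and the construct are not separated in these counts, and directions below refer to the labels. The labels call the cells neural progenitors. All 12 neuron markers, 9 radial glia markers and 8 intermediate progenitor markers were detected, with summed levels of 13290 to 18000 CPM for the neuron list, 551 to 1072 CPM in control and 265 to 406 CPM in Sox9-labelled libraries for the radial glia list, and 446 to 484 CPM in control and 366 to 464 CPM in Sox9-labelled libraries for the intermediate progenitor list, of which 3 genes (*Eomes*, *Btg2* and *Mfap4*) were called lower. In such bulk samples, fewer cells of a type and less RNA per cell cannot be told apart.

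Promoter sequences of 4 receptor genes are shown because the data bear on them most directly: *Gabbr2*, called in each of the 18 other settings that tested it, *Grin1* and *Chrna9*, the called genes whose window holds a Sox-type motif, and *Gria2*, the most abundant receptor mRNA. Each is the 300 bases from 250 before to 50 after a RefSeq gene start (GRCm38.p6), 5′ to 3′ on the gene's strand, and capitals mark ACAAAG or ACAATG on either strand, the letters that Sox family proteins typically bind. The *Chrna9* start used by RefSeq lies inside the longer gene model of GENCODE.
Gabbr2 (chr4:46991665-46991964, minus strand): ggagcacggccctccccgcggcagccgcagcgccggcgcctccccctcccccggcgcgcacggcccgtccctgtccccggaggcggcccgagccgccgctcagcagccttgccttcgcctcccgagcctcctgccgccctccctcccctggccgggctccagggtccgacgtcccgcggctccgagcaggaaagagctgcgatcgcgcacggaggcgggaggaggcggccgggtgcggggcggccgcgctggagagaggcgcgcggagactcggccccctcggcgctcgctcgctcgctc
Grin1 (chr2:25319138-25319437, minus strand): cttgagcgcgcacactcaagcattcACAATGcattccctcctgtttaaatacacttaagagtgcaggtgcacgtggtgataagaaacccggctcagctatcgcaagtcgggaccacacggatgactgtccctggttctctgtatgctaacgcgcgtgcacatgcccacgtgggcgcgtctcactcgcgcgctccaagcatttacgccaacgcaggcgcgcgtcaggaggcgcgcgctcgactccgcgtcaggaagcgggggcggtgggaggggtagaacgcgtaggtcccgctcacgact
Chrna9 (chr5:65966874-65967173, plus strand): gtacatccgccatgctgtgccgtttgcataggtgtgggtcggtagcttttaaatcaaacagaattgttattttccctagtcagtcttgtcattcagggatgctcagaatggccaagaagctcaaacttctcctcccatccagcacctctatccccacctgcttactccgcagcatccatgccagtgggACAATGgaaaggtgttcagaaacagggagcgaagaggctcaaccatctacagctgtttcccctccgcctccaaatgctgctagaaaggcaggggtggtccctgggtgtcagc
Gria2 (chr3:80802786-80803085, minus strand): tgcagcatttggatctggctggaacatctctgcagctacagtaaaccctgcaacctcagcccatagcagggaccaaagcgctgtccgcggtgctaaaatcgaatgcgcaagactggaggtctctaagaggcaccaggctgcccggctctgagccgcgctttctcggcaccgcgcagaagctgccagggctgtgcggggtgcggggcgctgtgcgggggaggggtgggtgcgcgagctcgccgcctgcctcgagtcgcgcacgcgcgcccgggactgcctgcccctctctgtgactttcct
RefSeq gave 75 such windows for 64 of the 88 genes, and 14 windows, or 18.7%, held the Sox-type letters, against 28.6% of 32851 windows of all genes. Windows were at hand for 5 of the 10 genes called higher (below), and 2 of these genes, *Grin1* and *Chrna9*, held them. The *Gabbr2* window is the most GC-rich of the 4, at 80.3% with 46 CG dinucleotides, compared with medians of 58.7% and 11 over the receptor windows and 52.7% and 7 over all windows. TATAAA was in 8.0% of receptor windows and 13.6% of all windows, and a core of the RE1 element, bound by the neuronal gene repressor REST, was in 0 of 75 and 0.0365% of all. A match of letters is a description of the window, and its absence says nothing about the factor.

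Of the 88 receptor genes, 55 passed edgeR's filter on low counts and were tested, and 10 had a higher level in the libraries labelled Sox9 at an adjusted p under 0.01. The 9 described here were *Gria3*, *Gria4*, *Grin1* and *Grin3a* for glutamate, *Gabbr2* for GABA, *Chrna9* and *Chrm1* for acetylcholine, and *Htr1d* and *Htr5b* for serotonin. None was called lower, with 2 genes (*Gria1* and *Gria2*) lower and 28 higher at an unadjusted p under 0.05, and DESeq2 called 12 higher and those 2 lower. The 10 calls are 18.2% of the tested receptor genes, beside shares of 9.96% higher and 3.88% lower among the 14267 protein-coding genes tested. Over all 16522 genes tested these shares were 11.3% and 3.43%. At an unadjusted p under 0.05 the receptor shares were 50.9% higher and 3.64% lower, beside 23.0% and 19.4% of the protein-coding genes tested. Below an average log2 CPM of 3 it was 23 of 39 receptor genes higher, or 59.0%, beside 49.8% higher and 3.48% lower of protein-coding genes. In 24 of the 55 tested receptor genes, or 43.6%, every library labelled Sox9 was above every control library and in 1, *Gria2*, every one was below, where this held for 19.8% and 18.4% of the protein-coding genes tested. Scaled levels also separated upwards in 2 genes with too few counts to test, *Chrnd* and *Gabrr1*. The raw counts of *Gabrr1*, 0 to 3 in control and 2 to 4 in the labelled libraries, overlapped. The share of all untested genes that separated in this way was not determined.

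The median log2 fold change over the 55 tested genes was 1.10, with 45 above 0 and 10 below. The direction of this median rests on the scaling. With TMM factors the median of all protein-coding genes was -0.06 and with DESeq2's size factors -0.08, which left the receptor median at 1.06. With cyclic loess, which aligns libraries separately at each level of expression, the receptor median was -0.03, with 27 genes above 0 and 28 below, and 3 genes were called higher (*Gria3*, *Grin3a* and *Gabbr2*). The rise therefore has to be read against genes of like level. Below an average log2 CPM of 1, 0 of 17 receptor genes were called higher against 21.6% of protein-coding genes in that range, and from 1 to 3 it was 5 of 22, or 22.7%, against 22.5%. From 3 to 6 it was 5 of 15, or 33.3%, against 3.05%, and these 5 were *Gria3*, *Gria4*, *Grin3a*, *Gabbr2* and *Chrm1*. This level is an average over all libraries, so the labelled libraries help to set the range. *Gabbr2*, *Gria4*, *Grin3a* and *Chrm1* had an average log2 CPM of 3.02, 3.11, 3.43 and 3.73, towards its lower edge. Their control means alone, at 3.17, 3.99, 3.70 and 6.59 CPM, would fall in the log2 range from 1 to 3. How much of the excess comes from this placement was not tested. *Gria2*, the only receptor gene above 6, was not called, and 0.544% of genes in that range were. Lower calls took 0.145%, 1.2%, 4.6% and 8.06% of protein-coding genes from the lowest range to the highest, and no receptor gene.

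**Figure D1:**
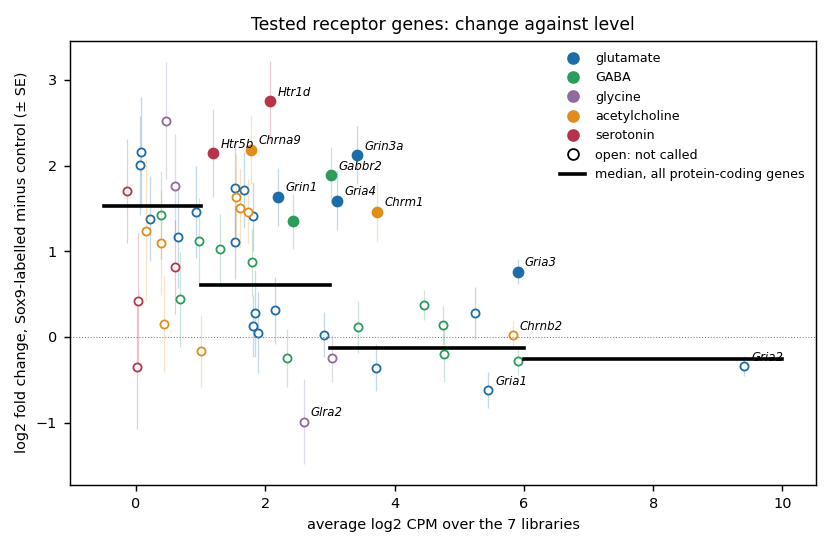
The log2 fold change (± SE, libraries labelled Sox9 minus control) is plotted against average log2 CPM for the 55 tested receptor genes, coloured by transmitter, with filled points for the 10 genes called higher. Black bars give the median of all protein-coding genes below 1, from 1 to 3, from 3 to 6 and above 6, which falls from 1.53 through 0.60 and -0.13 to -0.26, and the called genes above 3 lie well above their bar.

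A filter that keeps a gene present in at least 3 libraries shapes this list too. The cutoff was 0.956 CPM over total counts, before the TMM scaling used for the levels below, which 28 of the 55 tested genes reached in all 3 controls. The other 27, including *Chrna9*, *Htr1d* and *Htr5b* among those called, entered with at least 1 control below it.

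**Figure D2:**
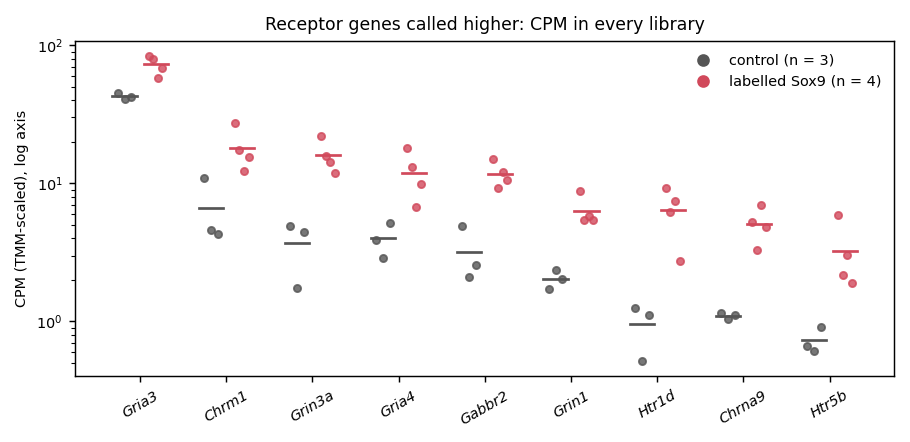
TMM-scaled CPM (log axis) is shown for 9 of the 10 receptor genes called higher, with 1 point per library and a bar at the group mean. In all 9 genes the 4 libraries labelled Sox9 lie above the 3 controls, with group means from 0.731 and 3.25 CPM for *Htr5b* to 42.8 and 72.6 CPM for *Gria3*.

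AMPA receptors carry most fast excitatory transmission, and all 4 subunit genes were tested. *Gria2*, the subunit that makes the channel impermeable to calcium once its mRNA is edited, was at 739, 843 and 732 CPM in control and 678, 567, 529 and 658 CPM in the libraries labelled Sox9. All 4 labelled libraries were thus below the lowest control, but the log2 fold change of -0.34 (SE 0.12) had an adjusted p of 0.0366 by edgeR and was not called, and with cyclic loess it was -0.08. *Gria1* had 62.7, 44.7 and 55.0 CPM in control and 41.3, 28.4, 47.1 and 23.1 CPM in the labelled libraries. The groups overlapped, and its log2 fold change of -0.62 (SE 0.21) had an adjusted p of 0.0377.

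*Gria3* (ENSMUSG00000001986, chromosome X, 41400854 to 41678601) went the other way. It had 45.4, 41.0 and 42.01 CPM in control and 83.7, 79.9, 57.9 and 68.8 CPM in the labelled libraries, so the controls were tightly grouped and all 4 labelled libraries were higher (1.70-fold, log2 fold change 0.76, SE 0.15, adjusted p = 0.00245 by edgeR). This call was lost in 2 of 18 other settings, against a 1.5-fold change and without control replicate 2. *Gria4* (ENSMUSG00000025892, chromosome 9, 4417896 to 4796234) had 3.92, 2.87 and 5.19 CPM in control against 18.1, 13.1, 6.71 and 9.86 CPM. It rose 3.00-fold (log2 fold change 1.59, SE 0.35, adjusted p = 0.0044), with replicate 3 of the labelled libraries nearest to the controls. The call was lost in 8 of 18 other settings, among them 4 of the 7 runs that left out a library.

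The make-up of the AMPA subunit pool, in which a single scaling factor per library cancels, is given per kilobase of exon. Cyclic loess scales by expression level and so does change such ratios between subunits. *Gria3* held 7.29%, 6.28% and 6.95% of the family's counts per exonic kilobase in control and 13.7%, 15.8%, 12.1% and 12.8% in the labelled libraries. *Gria4* held 1.00% ± 0.329 and 3.44% ± 1.12 (SD over 3 and 4 libraries), while *Gria2* held 78.0% ± 3.45 and 72.2% ± 3.51 and *Gria1* 14.2% ± 2.71 and 10.8% ± 3.84. The shares of *Gria3* did not overlap between the groups. Summed over the family, levels were 834 to 932 CPM in control and 640 to 821 CPM in the labelled libraries, a sum set mainly by *Gria2*, which alone took 47.8% to 69.7% of the counts on all receptor genes.

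NMDA receptors need the obligatory subunit encoded by *Grin1* together with GluN2 or GluN3 subunits. *Grin1* (ENSMUSG00000026959, chromosome 2, 25291181 to 25319187), whose promoter is printed above, had 1.72, 2.35 and 2.03 CPM in control and 8.79, 5.39, 5.81 and 5.45 CPM in the labelled libraries. It rose 3.11-fold (log2 fold change 1.64, SE 0.34, adjusted p = 0.00346 by edgeR), a call lost in 7 of 18 other settings. Its exons overlap those of *Grin1os* on the opposite strand, to which 0 to 2 counts per library were assigned, and reads of the pair cannot be told apart where strand was not used in counting. Exons of 21 receptor genes overlap a gene on the opposite strand.

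*Grin3a* (ENSMUSG00000039579, chromosome 4, 49661611 to 49845744), a GluN3 subunit that lowers calcium entry through the channel, had 4.87, 1.74 and 4.48 CPM in control. In the libraries labelled Sox9 it had 22.0, 15.7, 14.2 and 11.9 CPM, each at least 2 times the highest control. This 4.35-fold rise (log2 fold change 2.12, SE 0.34, adjusted p = 0.000744) had the smallest p of the receptor genes and was called in the 18 other settings that tested it. *Grin2b*, the main GluN2 subunit before birth, was at 56.8, 16.7 and 28.0 CPM in control and 34.4 to 52.9 CPM in the labelled libraries, which overlapped fully (log2 fold change 0.28, SE 0.30, adjusted p = 0.505). Within the family, the share per exonic kilobase of *Grin3a* was 11.5%, 9.38% and 17.5% in control and 30.2%, 32.8%, 29.4% and 22.4% in the labelled libraries, and that of *Grin2b* was 44.5% to 66.1% and 31.9% to 41.1%. The shares of *Grin3a* did not overlap between the groups, and the lower shares of *Grin2b* stand beside more *Grin3a* and *Grin1* rather than a lower level of its own. *Grin2a* and *Grin2d* were tested and not called, and *Grin2c* and *Grin3b* were not tested, with 2 to 14 counts per library.

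**Figure D3:**
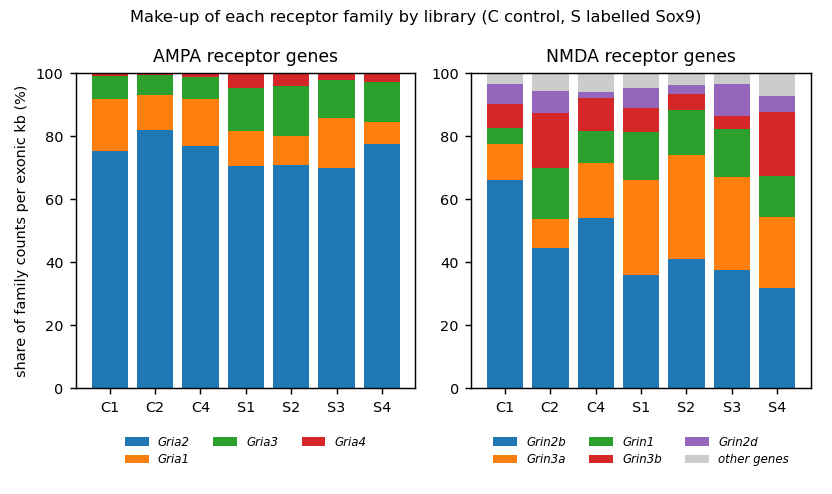
Stacked bars give the share (%) of AMPA and NMDA receptor counts per exonic kilobase held by each subunit gene in each control (C) and Sox9-labelled (S) library, with the lower NMDA genes in grey. *Gria3* takes 6.28% to 7.29% of the AMPA pool in control and 12.1% to 15.8% in the labelled libraries, and *Grin3a* takes 9.38% to 17.5% and 22.4% to 32.8% of the NMDA pool.

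Kainate and delta receptor genes gave no call, with 1 of 5 and 2 of 2 tested genes at an unadjusted p under 0.05 and higher. These 3 have an average log2 CPM under 3, where 49.8% of protein-coding genes did the same, as have those counted at that p among metabotropic glutamate and glycine receptors below. *Grik2* was at 14.6 ± 1.62 CPM in control and 11.3 ± 4.55 CPM in the labelled libraries (log2 fold change -0.36, SE 0.28, adjusted p = 0.333), and *Grik4* at 0.348 to 2.75 and 3.21 to 4.67 CPM. Of the 8 metabotropic glutamate receptor genes 6 were tested, all with a log2 fold change above 0 with TMM but 2 above and 4 below 0 with cyclic loess, and 4 reached an unadjusted p under 0.05 but none an adjusted p under 0.01. *Grm8*, a presynaptic receptor of the group that lowers cyclic AMP, had 2.49, 1.82 and 0.916 CPM in control and 5.22, 3.50, 4.25 and 5.87 CPM in the labelled libraries (log2 fold change 1.41, SE 0.41, adjusted p = 0.0177). *Grm2*, with the highest deposited FPKM of the class, was at 0.695 to 4.98 and 2.34 to 5.03 CPM (log2 fold change 0.27, SE 0.51, adjusted p = 0.715), and its sign changed with cyclic loess and without control replicate 2. *Grm3* and *Grm4* were not tested.

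GABA-A receptors are chloride channels that most often combine alpha, beta and gamma subunits, and 11 of 19 genes were tested. *Gabra2*, an alpha subunit abundant before birth, had 37.9, 23.9 and 25.2 CPM in control and 8.93, 29.7, 35.4 and 26.4 CPM in the labelled libraries (log2 fold change -0.20, SE 0.32, adjusted p = 0.667), with labelled replicate 1 below the other 6 libraries. Log2 fold changes were also near 0 for *Gabrb2* (0.11, adjusted p = 0.805) and *Gabra4* (-0.25, adjusted p = 0.607). *Gabra3* and *Gabrg3* had every labelled library above the controls without passing the threshold (adjusted p = 0.0994 and 0.0696). The GABA-A genes lie mainly in clusters. On chromosome 5, *Gabrg1*, *Gabra2*, *Gabra4* and *Gabrb1* lie between 70751047 and 72149037, and on chromosome X *Gabre*, *Gabra3* and *Gabrq* lie between 72255999 and 72842602, and neither cluster held a call. In all, 27 of the 88 genes lay in 10 clusters with gaps under 500 kb. *Gabra5*, *Gabra6*, *Gabrd*, *Gabre*, *Gabrq* and *Gabrr1* to *Gabrr3* were not tested.

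GABA-B receptors work only as a pair, in which the *Gabbr1* product binds GABA and the *Gabbr2* product couples to the G protein. *Gabbr2* (ENSMUSG00000039809, chromosome 4, 46662305 to 46991873) had 4.87, 2.09 and 2.54 CPM in control and 15.1, 9.26, 12.1 and 10.5 CPM in the labelled libraries, a 3.70-fold rise (log2 fold change 1.89, SE 0.33, adjusted p = 0.0013 by edgeR) that was also called in those 18 settings. *Gabbr1* had 16.3, 19.6 and 19.8 CPM in control and 26.4, 24.95, 24.93 and 19.92 CPM, so that replicate 4 nearly met the highest control (log2 fold change 0.37, SE 0.18, adjusted p = 0.116). Per exonic kilobase, *Gabbr1* was at 2.40 ± 0.253 and *Gabbr2* at 0.474 ± 0.224 CPM in control, against 3.10 ± 0.364 and 1.75 ± 0.378 CPM in the labelled libraries, so the 2 levels lay closer to each other there.

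Glycine receptors gave no call among 4 tested genes, 2 of which reached an unadjusted p under 0.05. *Glra2*, the alpha subunit typical of the embryonic brain, had the most negative fold change of the tested receptor genes with TMM. Its controls had 15.8, 2.26 and 6.002 CPM and the labelled libraries 2.46 to 5.36, all within that range (log2 fold change -0.99, SE 0.50, adjusted p = 0.139). With cyclic loess its log2 fold change was -0.98, and several other tested receptor genes were more negative. *Glra3* had 0.174 to 0.610 CPM in control and 1.92, 1.23, 3.58 and 0.629 CPM in the labelled libraries (log2 fold change 2.52, SE 0.68, adjusted p = 0.0129), and its log2 fold change with cyclic loess was 0.33. The shared beta subunit *Glrb* was at 8.77 ± 1.47 and 7.45 ± 1.90 CPM (log2 fold change -0.25, SE 0.27, adjusted p = 0.506). *Glra1* was tested and not called, and *Glra4* was not tested.

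Nicotinic receptors are cation channels, of which 8 of 16 genes were tested. *Chrna9* (ENSMUSG00000029205, chromosome 5, 65934921 to 65977326), best known from hair cells of the inner ear, had 12, 12 and 11 counts in the control libraries, against 38, 35, 62 and 23 where labelled Sox9. In CPM this was 1.15, 1.04 and 1.12 against 5.22, 3.31, 6.93 and 4.82, a 4.55-fold rise (log2 fold change 2.19, SE 0.40, adjusted p = 0.00162 by edgeR) that held without each library in turn and was lost with cyclic loess (log2 fold change 1.23). *Chrnb2*, the beta subunit of the main brain receptor, was more abundant, with 61.8, 47.5 and 59.1 CPM in control and 44.4, 67.2, 64.6 and 51.2 CPM in the labelled libraries (log2 fold change 0.02, SE 0.16, adjusted p = 0.931), a sign that changed with several settings. Exons of *Chrnb2* overlap those of *Adar* on the opposite strand, to which 544 to 1381 counts per library were assigned. In the chromosome 9 cluster, *Chrna5* (adjusted p = 0.0237) and *Chrna3* (adjusted p = 0.0112) had every labelled library above the controls without passing the threshold, and *Chrnb4* was not tested.

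Muscarinic receptor genes were represented by *Chrm1* and *Chrm2*, and the other 3 were not tested. *Chrm1* (ENSMUSG00000032773, chromosome 19, 8663789 to 8683587), the receptor that couples to phospholipase C in forebrain neurons, had 10.9, 4.60 and 4.27 CPM in control and 27.3, 17.4, 12.3 and 15.5 CPM in the labelled libraries (2.75-fold, log2 fold change 1.46, SE 0.35, adjusted p = 0.00687 by edgeR). Control replicate 1 was close to labelled replicate 3, and the call held in 3 of 7 runs that left out a library.

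Of 14 serotonin receptor genes, 6 were tested and 2 were called. *Htr1d* (ENSMUSG00000070687, chromosome 4, 136423524 to 136444398), which lowers cyclic AMP, had 13, 6 and 11 counts in the control libraries, against 67, 66, 67 and 13 where labelled Sox9. Scaled to library size this was 1.24, 0.521 and 1.12 CPM against 9.20, 6.24, 7.49 and 2.73 CPM, so that replicate 4, the library with the fewest counts, was nearest to the controls and still above them (6.74-fold, log2 fold change 2.75, SE 0.47, adjusted p = 0.00111 by edgeR). This was the highest fold of the tested receptor genes with TMM, while with cyclic loess it was 1.72 on the log2 scale and *Grin3a* was higher. *Htr5b* (ENSMUSG00000050534, chromosome 1, 121509842 to 121528465) had 0.669, 0.608 and 0.916 CPM in control and 5.91, 2.17, 3.02 and 1.89 CPM in the labelled libraries (4.42-fold, log2 fold change 2.14, SE 0.51, adjusted p = 0.00697). It rests on 7 to 9 counts per control, and the call held in 2 of 7 runs that left out a library. Summed over the 14 serotonin genes, levels were 5.45 to 6.92 CPM in control and 9.65 to 26.0 CPM in the labelled libraries, without overlap. This sum includes *Htr1d* and *Htr5b* and is not separate from their calls. With cyclic loess 2 of the 6 tested genes, *Htr1d* and *Htr5b*, were above 0 and 4 below.

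**Figure D4:**
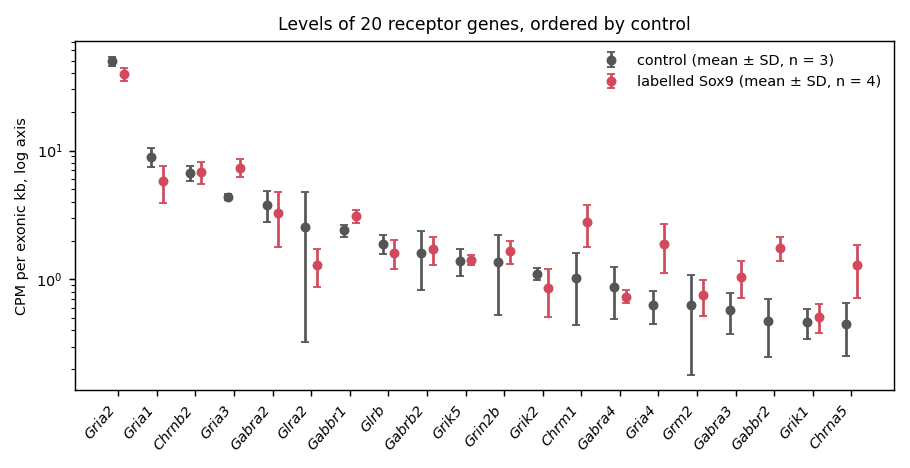
The plot orders 20 receptor genes with high control levels by CPM per exonic kilobase (log axis, mean ± SD, control n = 3, labelled Sox9 n = 4). *Gria2* stands apart at 49.6 in control and 39.1 in the labelled libraries, and among the called genes *Gria3*, *Chrm1*, *Gria4* and *Gabbr2* have error bars that do not meet.

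By level per exonic kilobase, the order in control among the genes described was *Gria2* (49.6 ± 4.01 CPM), *Gria1* (8.96 ± 1.498), *Chrnb2* (6.70 ± 0.906) and *Gria3* (4.34 ± 0.233). *Gria2* was above *Gria1*, *Gria1* above *Chrnb2* and *Chrnb2* above *Gria3* in every pair of control libraries. In the libraries labelled Sox9, *Gria3* moved from rank 5 to rank 3 of all receptor genes (7.36 ± 1.18), *Gria4* from 17 to 11 and *Gabbr2* from 20 to 12. The deposited FPKM values give another order, since in 33 of 33 receptor genes with a mean FPKM of at least 0.05 they imply a length within 10% of the whole gene span. That span was a median of 12.3 times the exonic length for receptor genes and 4.91 times for all protein-coding genes, and only *Gria2* and *Chrnb2* had a mean FPKM of at least 1.

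A group of 33 genes was not tested, with no more than 21 counts in any library. For 13 receptor genes every control library had 3 counts or fewer, the floor used here, and no fold is given for them by name.

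Genes that should be silent in neocortex moved with the low receptor genes. The chemoreceptor genes (taste, trace amine, vomeronasal and olfactory) had 99 of 1374 genes tested, 13 called higher and 0 lower (median log2 fold change 1.70), and their summed level was 113 to 155 CPM in control and 342 to 481 CPM in the labelled libraries. Per exonic kilobase this is 0.0228 to 0.0311 and 0.0688 to 0.0968 CPM, and 11 receptor genes were below that density in the median control and 12 in the median labelled library. Another 30 receptor genes, all 10 called ones among them, were at least 5 times above it in every library. When that density was subtracted from every gene in each library, the 9 called genes described here were still called, with *Grin3a* at a log2 fold change of 2.25 and *Gabbr2* at 1.99. Because these genes lie so far above the density, the subtraction removes only a small part of their counts, and their calls were little exposed to it. The partner genes *Slc12a5* and *Slc17a6* (below) lost their calls there. The part of this density in the smaller differences was not tested.

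Markers of other cells also moved. Summed levels were 6.499 to 6.61 CPM in control and 9.50 to 34.1 CPM in the labelled libraries for 10 interneuron markers, and 4.49 to 11.8 and 15.7 to 42.03 CPM for 7 endothelial markers. The 9 mural and meningeal markers summed to 9.18 to 11.5 and 17.8 to 32.8 CPM. Such low sums have to be read beside the general rise of genes of low level. The median log2 fold change of protein-coding genes was 1.53 below an average log2 CPM of 1 and 0.60 from 1 to 3. Of 9 oligodendrocyte precursor markers 4 were called higher (*Olig1*, *Olig2*, *Pdgfra* and *Cspg4*), with *Pdgfra* at 0.0869 to 0.287 CPM in control and 3.13 to 10.2 CPM in the labelled libraries, while the summed level of the list was 172 to 252 and 164 to 207 CPM. The 5 Cajal-Retzius cell markers summed to 6.52 to 11.9 and 12.95 to 22.9 CPM, with 1 (*Reln*) called higher. Microglia markers summed to 9.94 to 35.0 and 13.8 to 61.0 CPM and erythroid markers to 2.10 to 24.7 and 14.6 to 94.8 CPM, both with overlap and with 1 gene called higher. The 8 astrocyte markers summed to 100.5 to 205.3 and 75.2 to 114.5 CPM, with 2 called higher (*S100b* and *Slc1a2*) and 1 lower (*Aldh1l1*). That list includes *Sox9* itself, at 34.6 to 89.2 CPM in control and 31.0 to 50.8 CPM in the labelled libraries, a large part of the sum. No marker of these lists was at 0 in every library, and their part in the receptor differences was not tested.

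**Figure D5:**
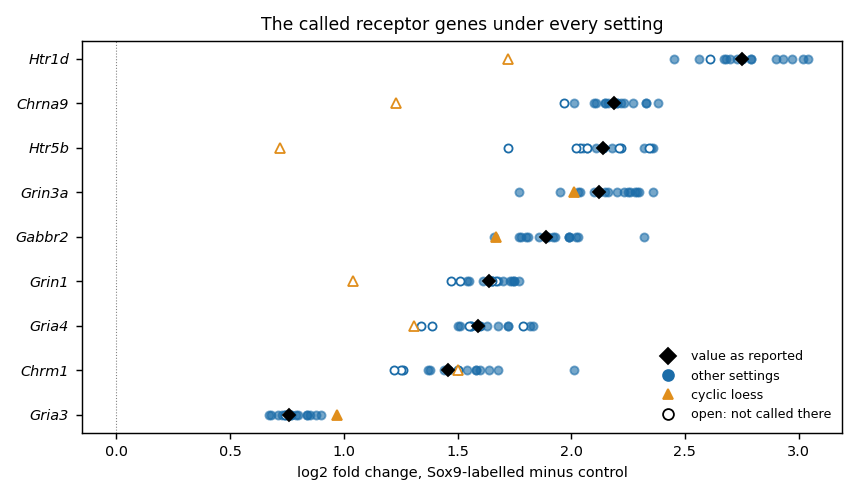
The log2 fold change (labelled Sox9 minus control) of 9 called receptor genes is shown as reported (diamond), under the other settings (circles) and with cyclic loess (triangle), with open symbols where the gene was not called. Every value lies above 0, the values of *Htr5b* run from 0.72 to 2.36, and those of *Grin3a* and *Gabbr2* are filled throughout.

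The proteins that assemble, anchor and serve these receptors were examined through 79 listed partner genes, of which 67 were tested, 8 called higher and 4 lower, with a median log2 fold change of 0.24. These shares are near the 9.96% and 3.88% of all protein-coding genes, so the calls below describe single genes and not partners as a group. Among 10 tested auxiliary subunits of glutamate receptors, *Cacng5*, which encodes a TARP that assists AMPA receptors, fell from 7.36, 15.2 and 8.14 CPM to 2.20, 1.32, 1.45 and 0.419 CPM (log2 fold change -2.86, SE 0.41, adjusted p = 0.000376 by edgeR), a call kept in the 17 other settings that tested it. *Gsg1l* was at 0.203 to 1.34 and 0.894 to 3.02 CPM and was not called. In the excitatory scaffold list, 2 of 19 tested genes were higher. *Dlgap1*, a scaffold of the postsynaptic density, rose from 7.07, 4.26 and 7.32 CPM to 21.6, 15.6, 19.7 and 15.3 CPM (log2 fold change 1.54, SE 0.25, adjusted p = 0.000859), and *Grip2*, which binds GluA2 and GluA3, from 2.20 ± 0.749 to 7.34 ± 2.47 CPM (log2 fold change 1.73, SE 0.38, adjusted p = 0.00468). The call of *Dlgap1* was kept in the 18 other settings that tested it, while that of *Grip2* was lost in 6 of 18, cyclic loess included.

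No partner was called in 2 lists. Among 8 tested genes for GABA and glycine receptor scaffolds, *Clptm1* had an adjusted p of 0.0487 and *Kctd8* 0.0216, and among 7 for nicotinic chaperones and modulators *Lynx1* had 0.0107 and *Ly6e* 0.0967. In the synthesis and vesicle loading list, *Slc17a6*, the vesicular glutamate transporter VGLUT2, fell from 105, 134 and 126 CPM to 76.1, 91.8, 76.9 and 75.7 CPM (log2 fold change -0.60, SE 0.13, adjusted p = 0.00371), a call lost in 12 of 19 other settings, and *Chat*, the acetylcholine-synthesizing enzyme, was not called (adjusted p = 0.0325).

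In the transmitter uptake and breakdown list, 5 of 14 tested genes were called higher and 2 lower. The 5 higher calls were all lost with cyclic loess, where *Dlgap1* was the only partner called higher. *Slc1a3*, the glial glutamate transporter GLAST and also a radial glia marker, fell from 145, 249 and 181 CPM to 81.3, 79.2, 59.4 and 85.1 CPM (log2 fold change -1.33, SE 0.17, adjusted p = 0.000213). It is 1 of 4 radial glia markers called lower, out of 9. *Slc6a4*, the serotonin transporter, rose from 0.765, 0.608 and 0.407 CPM to 4.67, 4.16, 5.81 and 1.89 CPM (log2 fold change 2.79, SE 0.49, adjusted p = 0.00133), lowest in replicate 4 as for *Htr1d*, and lost its call in 2 settings, of which cyclic loess (adjusted p = 0.0489) is 1. The other calls of this list, named after their values were seen, were *Slc1a2*, *Slc6a5*, *Slc6a11* and *Slc6a13* (higher) and the GABA-degrading *Abat* (lower). Of the chloride transporters, *Slc12a5* (KCC2), which extrudes chloride in mature neurons, rose from 0.669, 0.956 and 1.32 CPM to 5.49, 2.65, 4.25 and 2.10 CPM (log2 fold change 1.88, SE 0.47, adjusted p = 0.00843), but the call was lost in 10 of 17 other settings, with a log2 fold change of 0.71 under cyclic loess. *Slc12a2* (NKCC1), which loads chloride, was at 13.1 ± 0.457 and 10.6 ± 2.32 CPM (log2 fold change -0.28, SE 0.22, adjusted p = 0.353).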

How the data were processed

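The authors sequenced 3 control libraries and 4 libraries labelled Sox9. Per the methods and labels, cDNA was primed with poly-dT and amplified by PCR, without molecular identifiers. Reads were demultiplexed with bcl2fastq 2.17.1.14, trimmed with cutadapt and aligned to mm10 with STAR 2.5.2b. Raw counts and FPKM values, both per Ensembl gene, were deposited by the authors. The counting program and its use of strand are not given in the sources used here. FPKM served only for the length check, for 1 filter and for choosing named genes.

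Symbols, biotypes and coordinates came from GENCODE M21 (mm10), which held 36345 of the 38124 gene identifiers. Differences in counts were assessed in R 4.3.3 with edgeR 4.0.16 (TMM, filterByExpr, quasi-likelihood test, two-sided, no covariate), over 16522 genes with Benjamini-Hochberg adjustment and a threshold of 0.01. Limma 3.58.1 and DESeq2 1.42.0 served as alternatives. CPM are counts over TMM-scaled library sizes, and SE is the size of the log2 fold change over the root of the F statistic. Scripts were tested on simulated data. The legends give each library as a neocortex of its own and the methods describe pools, so p-values measure the spread between libraries, whichever these are. No libraries agreed within sampling noise (chi-square per degree of freedom 7.55 to 20.8). A floor of 3 counts was used, which covers counting error only.

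The receptor genes, partner lists and markers were chosen with earlier results of these data known. Genes named were those called, the gene with the smallest p and with the highest FPKM in each receptor class, the 3 most negative fold changes, 2 partners per list with the smallest p, and *Sox9*. Other genes named were chosen after their values were seen. Results of some genes are not reported here. Settings tried were other scalings, filters, thresholds and tests, replicate blocks, leaving out each library, and, added after seeing the data, subtraction of the chemoreceptor density.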

Additional observations from a re-analysis of the deposited data

Results flagged for a closer look

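Among 36 named genes, 2 had a library labelled Sox9 whose gap to its nearest neighbour exceeded Dixon's 95% limit for 4 libraries, which chance does in about 1 of 20 groups. *Grin1* was at 8.79 CPM in replicate 1, where the other 3 had 5.39 to 5.81 CPM, and without that library *Grin1* was not called (log2 fold change 1.47). *Slc17a6* was at 91.8 CPM in replicate 2, where the others had 75.7 to 76.9 CPM.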

How the results depend on the processing

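The cause of these differences was not tested. Called receptor genes numbered 10 higher and 0 lower as reported. They were 3 higher with cyclic loess, 4 with a test against a 1.5-fold change, 0 among genes with a mean FPKM of at least 1, and 24 at an adjusted p under 0.05. DESeq2 and that looser threshold each gave 2 lower, and no filter on low counts gave 3. Leaving out 1 library gave 5 to 13 higher, with 5 both without control replicate 2 and without Sox9 replicate 1. The receptor median of 1.10 became -0.03 with cyclic loess, 0.27 with at least 10 counts in every library (29 genes) and 0.01 with an FPKM of at least 1 (which kept only *Gria2* and *Chrnb2*, neither of them called, so that no call was possible for the others), and lay between 0.68 (without Sox9 replicate 1) and 1.18 when 1 library was left out.

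Partner genes called higher, 8 as reported, were 1 with cyclic loess, 4 with at least 10 counts, 0 with an FPKM of at least 1, 15 at the looser threshold, 3 against a 1.5-fold change and 3 to 8 without 1 library (3 without control replicate 2 or 4, 4 without Sox9 replicate 1, 5 without control replicate 1 or Sox9 replicate 3). Those called lower, 4 as reported, were 2 with at least 10 counts, 1 with an FPKM of at least 1, 2 against a 1.5-fold change and 2 to 4 without 1 library (2 without control replicate 2).

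Replicate numbers differ between titles and descriptions, and libraries of the same number did not deviate together (correlations of -0.0356, 0.118 and -0.00485 by title, 0.017 for the third pair by description). A replicate block by title gave 4 receptor genes higher, 2 partners higher and 2 partners lower. A block by description gave 7, 3 and 3.

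The log2 fold change of *Chrnb2*, 0.02, turned to -0.06 with DESeq2, with no filter and with the block by title, and to -0.08 without control replicate 2, -0.05 without Sox9 replicate 2 and -0.02 without Sox9 replicate 3 (-0.08 to 0.15 over the libraries left out). *Grm2* turned to -0.12 with cyclic loess and -0.21 without control replicate 2 (-0.21 to 0.83), and *Gsg1l* to -0.06 with cyclic loess. Of the 9 called genes described, *Grin3a* and *Gabbr2* were called in the 18 settings that tested them (an FPKM of at least 1 removed both), *Gria3* was lost against a 1.5-fold change and without control replicate 2, and *Chrna9* and *Htr1d* with cyclic loess and the block by title. *Chrm1* was lost in 6 settings, *Grin1* in 7, *Gria4* in 8 and *Htr5b* in 9. Depth was not varied, and genes with under 10 counts per control, the called *Htr5b* among them, rest on few reads.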
